A study of Homo sapiens with 6 samples.

Results

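PRRC2A, PRRC2B and PRRC2C are the 3 genes of the human PRRC2 (proline-rich coiled-coil 2) family, and they were taken here as 3 of the 62492 gene rows in the deposited RNA-seq tables. RNA was sequenced from HCT116, a human colorectal carcinoma cell line. Cells labelled wild type were transfected with 20 nM of a control siRNA (siControl, 3 libraries) or of an siRNA against NONO (siNONO, 3 libraries), and the labels number the libraries of each group as Sets 1 to 3. NONO is a nuclear RNA-binding protein of paraspeckles, and the comparison asks what happens to transcripts when it is depleted. The siControl libraries held 32659002, 27491389 and 21765393 estimated counts in Sets 1, 2 and 3, and the siNONO libraries held 28715263, 28260060 and 27946591. The design names the 3 libraries of a group biological replicates, all from 1 cell line, and the methods give 1 duplex for siNONO.

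The members were chosen by name. The family was taken up because the log2 fold change of PRRC2C in this same contrast was among the lowest, so the siNONO values of all 3 genes are given as a description, with no test. The reference table paired PRRC2A and PRRC2C with their Ensembl identifiers. It did not pair PRRC2B (ENSG00000130723 in the files), which the later reference lists under a new identifier, so this gene was named by hand and the family sum is also given without it. In bulk RNA, less transcript in each cell and fewer cells that carry the transcript cannot be told apart.

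PRRC2 proteins are long, mostly unstructured cytoplasmic proteins that bind RNA and travel with the translation initiation machinery, in which eIF4F binds the mRNA cap, eIF3 loads the small ribosomal subunit and eIF2 brings the initiator tRNA. They are known for helping the scanning ribosome pass upstream start codons and reach the main open reading frame. They are also known as components of stress granules, the cytoplasmic assemblies of stalled mRNAs, and PRRC2A and PRRC2B have been described as readers of N6-methyladenosine (m6A) in mRNA.

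The sequences that matter first are the places where each transcript comes nearest to the siRNA target, since 1 duplex was used. The target is 25 bases in exon 5 of 12 of NONO, in the coding sequence, at chrX:70514318-70514342 (GRCh37, plus strand). The 25-base window of each canonical transcript (GENCODE version 44 on GRCh37) that holds its longest unbroken match follows, 5′ to 3′, with that match in capitals:
NONO: GGAAGCCAGCTGCTCGGAAAGCTCT
PRRC2A: cGAAGCCAGCccagtggaaccacaa
PRRC2B: GGAAGCCAGacccccacgagagtcc
PRRC2C: cgctcgctccccCTCGGAAAGCTgc

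In PRRC2A the match was 9 bases, at chr6:31596004-31596012 in coding exon 12 of 31, and its window ran over an exon junction. In PRRC2B it was 9 bases as well, at chr9:134350606-134350614 in coding exon 16 of 32. In PRRC2C it was 11 bases, at chr1:171454705-171454715 in the 5′ UTR, in exon 1 of 35, and it faces bases 3 to 13 of the antisense strand. A match of 11 bases or more was present in 571 of 16916 tested genes other than NONO with a transcript in the reference (3.38%), and the median log2 fold change of those genes was -0.01. Of 683 such genes with a transcript of at least 10000 bases, 60 (8.78%) had one. Only the longest unbroken match to the target was looked for. Shorter matches to the start of the antisense strand, and matches to the other strand of the duplex, were not. Whether the duplex acts on PRRC2C directly was not tested in these libraries.

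NONO itself stood at 363, 330 and 407 TPM (the level that RSEM scales by transcript length and library size) in siControl Sets 1, 2 and 3. In siNONO it stood at 75.7, 75.5 and 81.7 TPM. All siNONO libraries lay far under all siControl libraries, as their labels say. The log2 fold change from counts was -2.40 (SE 0.0337), which leaves 18.9% of the siControl level (adjusted p = 2.47e-13 from the quasi-likelihood test of edgeR, adjusted by Benjamini-Hochberg). The epithelial genes KRT8 (1251 and 1116 TPM in siControl and siNONO), KRT18 (617 and 605), KRT19 (781 and 806) and EPCAM (236 and 276) were high in both groups. CDX1 was listed at 0 and VIL1 at 0.103 and 0.0733 TPM, so 2 of the 9 colorectal markers were at or near 0. Of 11 markers of leukocytes, fibroblasts, endothelium and erythroid cells, 9 averaged under 1 TPM. COL1A1 was the most abundant of these at 17.7 and 17.4 TPM, beside COL1A2 at 0.

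In siControl cells the 3 PRRC2 genes stood at nearly the same level in TPM. TPM rests on the average length that RSEM assigned, 5814, 4678 and 7483 bases for PRRC2A, PRRC2B and PRRC2C in siControl. Their canonical transcripts have 6903, 11238 and 10624 bases, so the ranking between the genes depends on the isoforms assigned. Without scaling for length the order differed, as the counts below show. PRRC2A, which lies in the major histocompatibility region (GRCh37 chr6:31588492-31605548, plus strand), stood at 116, 115 and 131 TPM in Sets 1 to 3. PRRC2B (chr9:134249023-134375584, plus strand) stood at 105, 101 and 113 TPM. PRRC2C (chr1:171454669-171562650, plus strand) stood at 96.8, 103 and 104 TPM. PRRC2A was above PRRC2B in every siControl library, while PRRC2B and PRRC2C overlapped and changed order in Set 2. The means were 121 ± 9.01, 106 ± 5.70 and 102 ± 4.10 TPM (SD, n = 3 each), so PRRC2B and PRRC2C did not differ beyond their spread.

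In siNONO cells the order was the same and the spacing was not. PRRC2A stood at 96.3, 95.3 and 104 TPM, a mean of 98.7 ± 5.02 (SD, n = 3), or 81.9% of siControl. PRRC2B stood at 83.5, 85.2 and 86.4 TPM, a mean of 85.0 ± 1.48, or 79.9% of siControl. PRRC2C stood at 29.8, 29.8 and 30.9 TPM, a mean of 30.2 ± 0.622, or 29.7% of siControl. For each of the 3 genes every siNONO library lay under every siControl library, a pattern that 29.4% of the 17000 genes tested also had. The groups of PRRC2A came close, from 104 TPM in siNONO to 115 in siControl, whereas those of PRRC2C were wide apart, from 30.9 to 96.8 TPM.

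**Figure D1:**
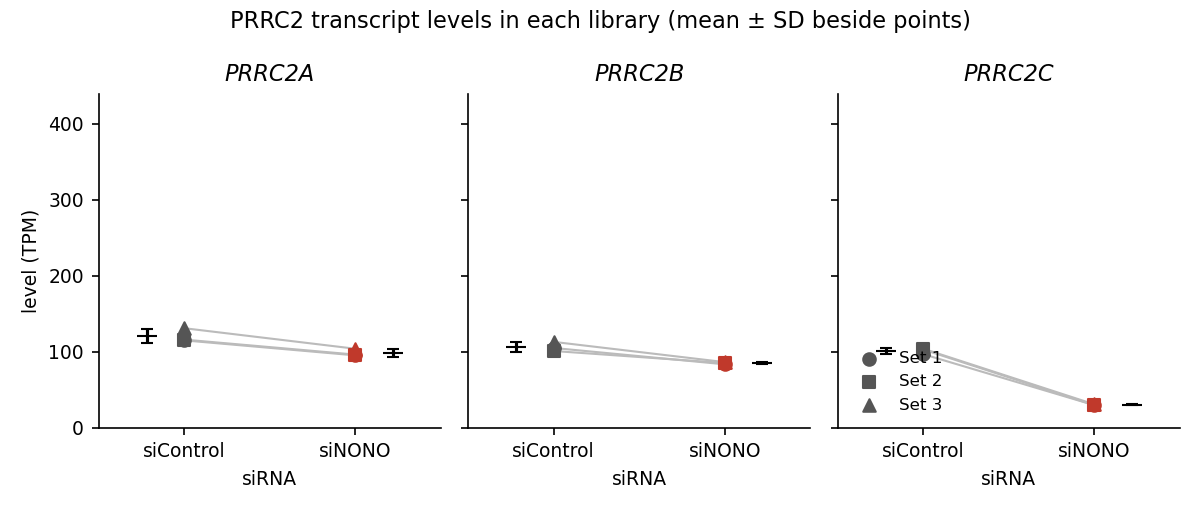
Level of each PRRC2 gene (TPM, from 0) in the 3 siControl (grey) and 3 siNONO (red) libraries, with a marker shape for each Set, a line joining the libraries of a Set, and the mean ± SD (n = 3) beside the points. PRRC2A and PRRC2B averaged 81.9% and 79.9% of siControl, and PRRC2C went from between 96.8 and 104 TPM to between 29.8 and 30.9 TPM.

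Counts, which are scaled neither for length nor for library size, fell the most in PRRC2C. In Set 3, whose siControl library was the smallest, those of PRRC2A and PRRC2B were higher in siNONO. PRRC2C had 16811, 14513 and 11680 counts in siControl Sets 1 to 3 and 4363, 4418 and 4019 in siNONO. PRRC2A had 15081, 12964 and 11127 against 11322, 11371 and 12313, and PRRC2B had 10843, 9062 and 7755 against 7919, 7927 and 8197. With library sizes scaled by the trimmed mean of M values (TMM), PRRC2C went from 524 ± 12.1 to 152 ± 7.58 CPM (counts relative to the scaled library size). PRRC2A went from 479 ± 25.2 to 415 ± 22.9 CPM and PRRC2B from 338 ± 13.5 to 285 ± 8.18 CPM. In CPM, too, every siNONO library lay under every siControl library for each of the 3 genes, as it did for 24.0% of the genes tested. PRRC2C thus gave more counts than either paralog in siControl cells and fewer in siNONO cells.

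The log2 fold change of PRRC2C, siNONO against siControl, was -1.79 (SE 0.0356), with -1.74, -1.74 and -1.89 in Sets 1, 2 and 3. That of PRRC2A was -0.21 (SE 0.0275), with -0.21, -0.21 and -0.20. That of PRRC2B was -0.24 (SE 0.0290), with -0.25, -0.22 and -0.27. All 9 values within a Set were under 0. The same holds for at least the 24.0% of genes tested whose siNONO libraries all lay under siControl in CPM. Those of PRRC2C were low by its choice. As shares of the siControl level these fold changes leave 28.9% of PRRC2C, 86.6% of PRRC2A and 84.4% of PRRC2B.

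Set against all genes, the log2 fold change of PRRC2C ranked 29 from the lowest of 17000, while those of PRRC2B and PRRC2A ranked 3922 and 4465. The median of all genes was -0.0048, with quartiles of -0.22 and 0.21, so PRRC2A and PRRC2B lay near the lower quartile. A log2 fold change of -1.5 or lower was found for 57 genes (0.335%). Of the 29 genes at or under PRRC2C in fold change, PRRC2C was the only one with an average log2 CPM as high as its own, a level that 351 genes reached. NONO, with the lower fold change, lay just under that level at an average log2 CPM of 8.22 against 8.40.

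**Figure D2:**
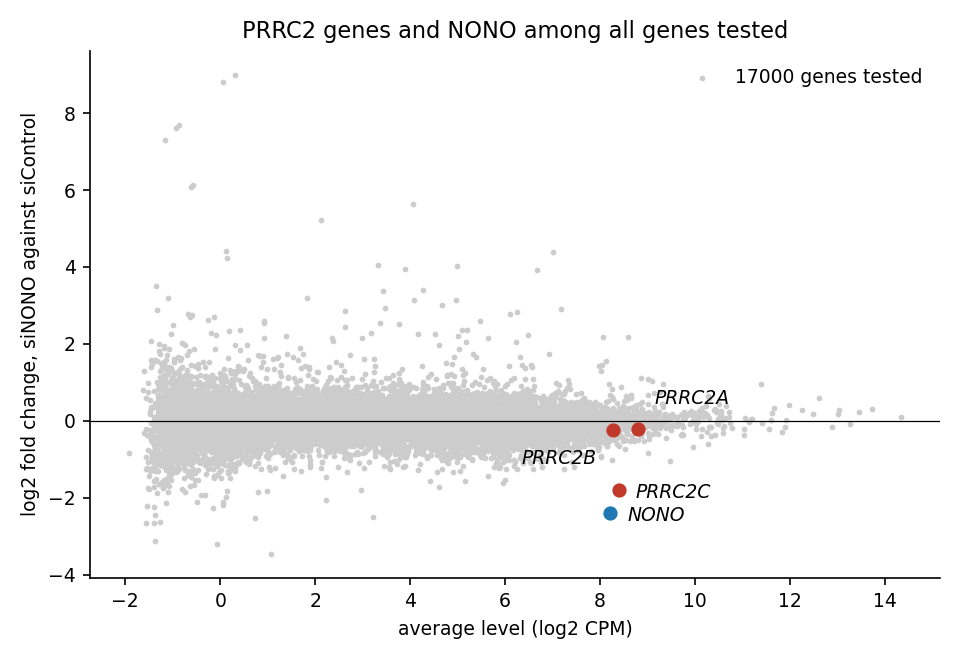
Log2 fold change (siNONO against siControl, vertical axis) against average level (log2 CPM, horizontal axis) for the 17000 genes tested (grey), with the PRRC2 genes in red and NONO in blue. PRRC2C at -1.79 and NONO at -2.40 stand clear of the grey cloud at their level, and PRRC2A at -0.21 and PRRC2B at -0.24 lie inside it.

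The distance between PRRC2C and its paralogs was taken within each Set. PRRC2C moved by -1.51, -1.52 and -1.65 more than the mean of PRRC2A and PRRC2B on the log2 scale, a mean of -1.56 ± 0.0773 (SD, n = 3 Sets). PRRC2B and PRRC2A differed from each other by -0.04 ± 0.0312. PRRC2C was the lowest of the 3 in each Set, as its choice would lead one to find, and the values of PRRC2A and PRRC2B lay side by side.

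Added together, the 3 genes gave 318, 319 and 348 TPM in siControl and 210, 210 and 222 TPM in siNONO. The groups did not overlap, and the sum went from 328 ± 16.9 to 214 ± 6.83 TPM (SD, n = 3), or 65.1% of siControl. Without PRRC2B, whose identifier was matched by hand, the sum went from 222 ± 11.9 to 129 ± 5.64 TPM, or 58.0%. Of the TPM lost from the family, 62.3% was PRRC2C, 19.0% PRRC2A and 18.7% PRRC2B.

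The make-up of the family pool shifted with it. PRRC2C was 30.5, 32.3 and 30.0% of the pool in siControl Sets 1 to 3 and 14.2, 14.2 and 13.9% in siNONO. PRRC2A made up 36.7 ± 0.856 and then 46.1 ± 0.902% of it and PRRC2B 32.4 ± 0.736 and then 39.8 ± 0.772%, although both were lower in level. The ratio of PRRC2C to PRRC2A went from 0.844 ± 0.0504 to 0.306 ± 0.00903. By TPM, a pool of nearly equal parts in siControl cells was in siNONO cells made mostly of PRRC2A and PRRC2B. These shares rest on the average lengths that RSEM assigned.

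**Figure D3:**
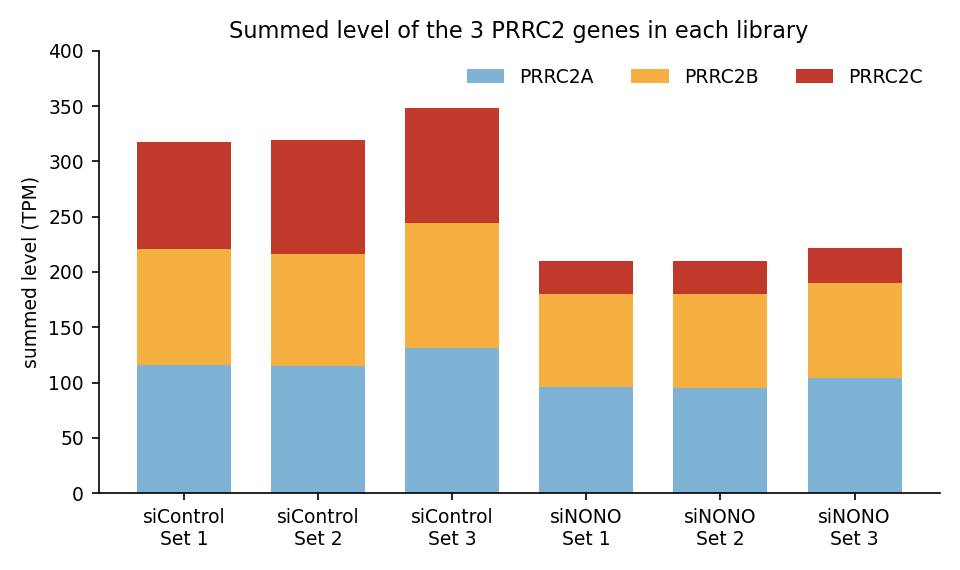
Summed level of the PRRC2 genes (TPM, from 0) in each of the 6 libraries, stacked by gene. The 3 siControl bars reach 318 to 348 TPM and the 3 siNONO bars 210 to 222 TPM, and the red PRRC2C part shrinks from about 30% of the bar to about 14%.

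The transcripts of the 3 genes can be told apart by sequence. The canonical transcript of PRRC2A has 6903 bases, that of PRRC2B 11238 and that of PRRC2C 10624, with coding sequences of 6471, 6687 and 8694 bases. PRRC2C is the least rich in G and C, at 46.8% of its coding bases against 61.7% in PRRC2A and 59.4% in PRRC2B. Over all reference transcripts of each gene, the longest stretch that any 2 of the genes share is 19 bases, between PRRC2A and PRRC2C. In all 6 libraries the estimated counts of all 3 genes were whole numbers (within 0.005), as were those of 59.2% of the genes tested, which shows no sign of reads divided with another gene. The genes annotated inside their bounds that matched a row had at most 1 count in each group.

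RSEM also gives each gene an average transcript length, weighted by the isoforms it assigned reads to. For PRRC2C it was 7713, 7296 and 7442 bases in siControl Sets 1 to 3 and 7062, 7128 and 6388 in siNONO. The groups did not overlap, and the mean went from 7483 ± 212 to 6859 ± 410 bases (SD, n = 3), a log2 ratio of -0.13. Lower average lengths without overlap were found in 5.83% of the genes tested (5.46% for higher ones), and 7.42% had a log2 ratio as low as this or lower. The averages of PRRC2A (5814 ± 97 and 5763 ± 43 bases) and PRRC2B (4678 ± 37 and 4638 ± 83 bases) overlapped between the groups. With the effective lengths as offsets in the fit, the log2 fold change of PRRC2C was -1.66 in place of -1.79. Which isoforms carried the difference was not tested, since the tables are by gene.

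**Figure D4:**
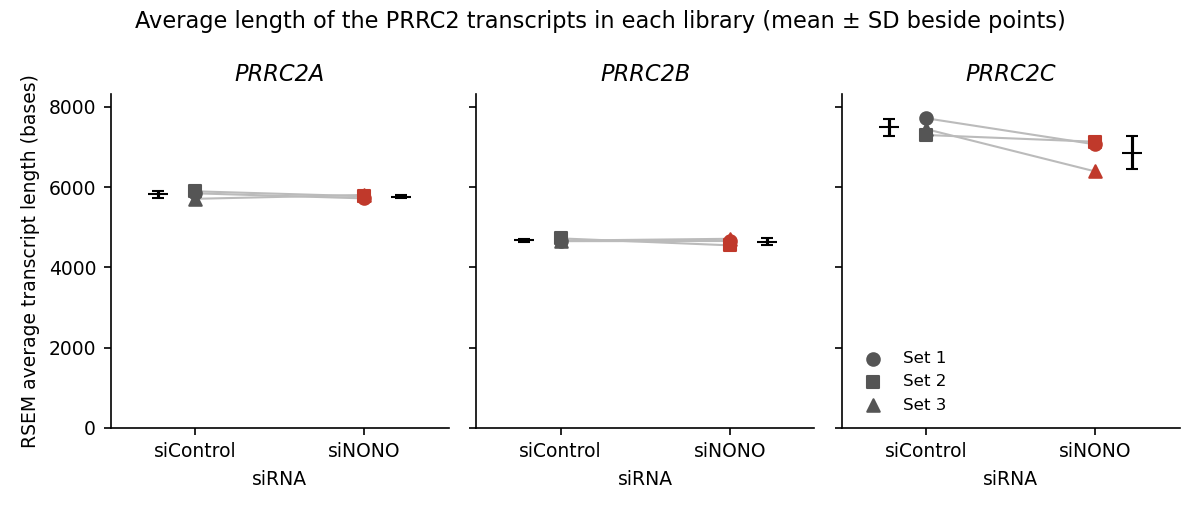
Average transcript length that RSEM assigned to each PRRC2 gene (bases, from 0) in the siControl (grey) and siNONO (red) libraries, with a marker shape for each Set and the mean ± SD (n = 3) beside the points. The PRRC2C libraries run from 7296 to 7713 bases in siControl and from 6388 to 7128 bases in siNONO, and those of PRRC2A and PRRC2B overlap.

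The proteins that PRRC2 proteins work with were followed through lists of related genes. An adjusted p of at most 0.05 (edgeR, over 17000 genes) was met by 46.6% of all genes, with 3939 higher (23.2%) and 3985 lower (23.4%) in siNONO. On log2(TPM + 1) with limma the split was 1643 higher and 3614 lower, and the median of all genes was -0.071. Counts in the lists are read against that background, in which close to 1 gene of 2 passes.

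Of 42 translation initiation genes, all measured, 17 were higher, 6 lower and 19 did not pass (54.8% called), with a median log2 fold change of 0.07 beside -0.0048 for all genes. With limma on log2(TPM + 1) the list had 8 higher and 11 lower and a median of 8.2e-05, beside -0.071 for all genes, so the split of its calls turned while its median stayed above that of all genes. The 14 eIF3 rows gave 10 higher and none lower, with a median of 0.17, and 10 higher and 1 lower without Set 1 of either group. With limma they gave 4 higher and 2 lower, with a median of 0.066 beside -0.071 for all genes. EIF3I, a subunit of eIF3, went from 126 ± 6.87 to 245 ± 8.43 TPM (log2 fold change 1.06, SE 0.0331, edgeR adjusted p = 1.56e-10), with 1.05, 1.02 and 1.12 in the 3 Sets. EIF3H rose as well (0.33, SE 0.0304, edgeR adjusted p = 2.15e-06). EIF3C and EIF3CL, near-identical copies whose reads cannot be divided with certainty, had 0.08 and -0.01 and did not pass.

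Among the factors that carry the initiator tRNA, EIF2S3, the gamma subunit of eIF2, rose from 122 ± 0.262 to 172 ± 4.38 TPM (0.62, SE 0.0288, edgeR adjusted p = 5.31e-09). EIF2S2, the beta subunit, fell from 96.5 ± 7.94 to 67.9 ± 2.43 TPM (-0.42, SE 0.0358, edgeR adjusted p = 1.2e-06). These 2 genes of eIF2 moved in opposite directions, and EIF2S1, the gene of its alpha subunit, added after its values were seen, had 0.07 and did not pass. EIF5B, which joins the ribosomal subunits, fell (-0.28, SE 0.0302, edgeR adjusted p = 8.35e-06), and so did EIF1AX, which helps scanning (-0.19, SE 0.0420, edgeR adjusted p = 0.00211, or 0.063 without the Set block). EIF1AX had -0.29 with effective length offsets and -0.37 with limma.

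The scaffold EIF4G1 had a log2 fold change of -0.12 (SE 0.0267, edgeR adjusted p = 0.00257), and its relative EIF4G2, which acts in cap-independent initiation, had 0.16 (SE 0.0264, edgeR adjusted p = 0.000333). Without the Set block EIF4G1 lost its call, at an edgeR adjusted p of 0.0524, and without siControl Set 2, at 0.0693, though limma gave it -0.26. EIF4G2 lost its call with limma on log2(TPM + 1), where its log2 fold change was 0.06 (adjusted p = 0.27). EIF4G3 (0.02), DENR (-0.08) and MCTS1 (0.09), of which the last pair form a reinitiation factor, did not pass. DENR passed with library size alone (-0.09, edgeR adjusted p = 0.0439) and with limma on log2(TPM + 1) (-0.19, adjusted p = 0.0228). Against these, the log2 fold change of PRRC2C was lower than that of any of the 42 genes, whose lowest was -0.42. Its choice among the lowest of all genes would lead one to find this.

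Of 31 stress granule genes 13 were lower, 5 higher and 13 did not pass (58.1% called), with a median of -0.07. That median was -0.041 without siControl Set 3, -0.044 without siNONO Set 3, and -0.18 with limma, where 2 were higher and 17 lower and all genes had -0.071. FXR1, an RNA-binding relative of the fragile X protein, went from 198 ± 4.80 to 148 ± 4.23 TPM (-0.41, SE 0.0292, edgeR adjusted p = 2.12e-07). G3BP2 fell from 171 ± 5.31 to 130 ± 8.10 TPM (-0.35, SE 0.0321, edgeR adjusted p = 2.07e-06), and its paralog G3BP1, the core scaffold of the granule, had -0.12 (SE 0.0289, edgeR adjusted p = 0.00364, or 0.101 without the Set block). The fold change of G3BP1 was larger with effective length offsets (-0.24) and with limma (-0.33). The helicase DDX6 fell by 0.27 on the log2 scale and CAPRIN1, a partner of the G3BP proteins, by 0.13. CAPRIN1 had -0.08 without siControl Set 3 and -0.24 with limma, and kept its call in both. FMR1 (0.25), the poly(A)-binding PABPC4 (0.19) and UBAP2L (0.17) were higher, though UBAP2L lost its call in 4 of 15 alternative settings. It had 0.11 with effective length offsets. Without siControl Set 1 it had 0.12 (adjusted p = 0.0574, edgeR) and without siNONO Set 1, close to the same fit, 0.11 (0.0621). With limma on log2(TPM + 1) its log2 fold change was 0.02 (adjusted p = 0.657), beside -0.071 for all genes.

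Of 21 m6A genes 10 were lower, 4 higher and 7 did not pass (66.7% called), with a median of -0.06. That median moved with the Set that lost a library, to -0.014 without siControl Set 3, -0.017 without siNONO Set 3 and -0.11 without Set 1 of either group. It was -0.12 with effective length offsets and -0.17 with limma, where 2 were higher and 9 lower. The readers split: YTHDF3 went from 44.9 ± 0.965 to 32.8 ± 1.09 TPM (-0.46, SE 0.0389, edgeR adjusted p = 1.11e-06), and YTHDF2 had 0.16 (edgeR adjusted p = 0.00134). With limma on log2(TPM + 1) YTHDF2 had 0.10 and lost its call (adjusted p = 0.187). YTHDF1 had -0.02 and did not pass. IGF2BP2, a reader tied to mRNA stability, rose by 0.21 on the log2 scale. Of the writers, RBM15 (-0.35) and VIRMA (-0.25), both adaptors of the methyltransferase complex, were lower. METTL16, which methylates a set of structured RNAs, was higher at 0.40, and the catalytic METTL3 had 0.02 and did not pass. No gene of the stress granule or m6A lists reached an absolute log2 fold change of 0.5, and 2 of the initiation list did.

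**Figure D5:**
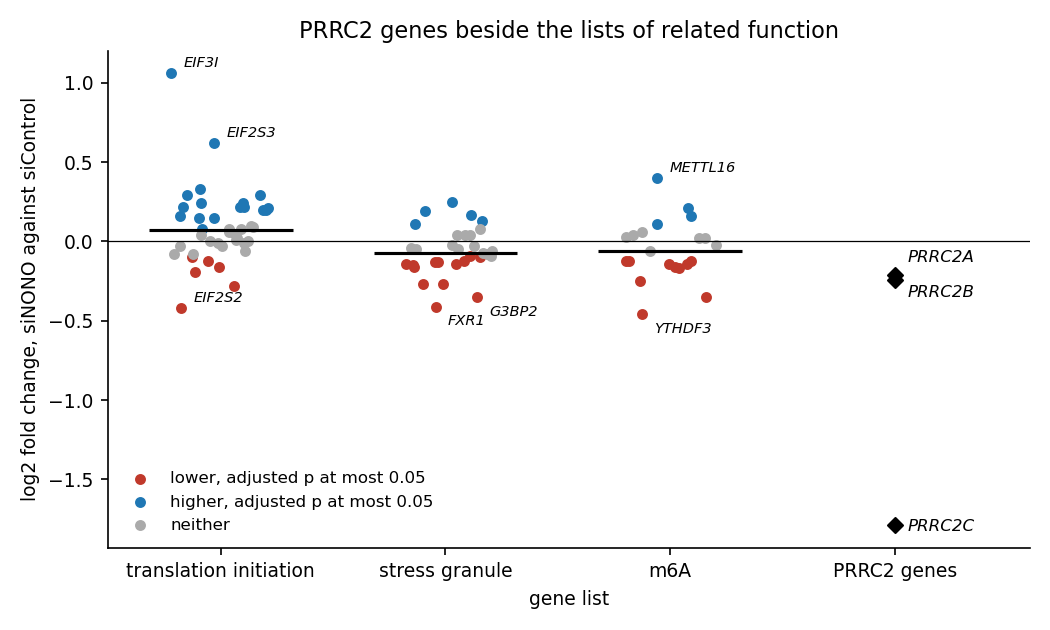
Log2 fold change (siNONO against siControl, vertical axis) of each gene in the translation initiation, stress granule and m6A lists, coloured by its call at an adjusted p of at most 0.05 (edgeR), with the list median as a bar and the PRRC2 genes as black diamonds. List members lie between -0.46 and 1.06, and PRRC2A and PRRC2B fall within that range. PRRC2C, taken up for its low value, lies under all of them at -1.79.

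The genes beside each PRRC2 gene were taken as the nearest 3 tested genes on each side. Around PRRC2C, KIFAP3 (0.46), a kinesin adaptor, and METTL13 (0.25), a methyltransferase of elongation factor eEF1A, were higher. DNM3 (-0.75), a dynamin, and GORAB (-0.25), a golgin, were lower, and FMO4 (0.03) and VAMP4 (0.07) did not pass. The call of GORAB was lost in 3 of 15 alternative settings. With DESeq2 its adjusted p was 0.215. Without Set 3 of siControl or of siNONO, close to the same fit, GORAB had -0.16 (adjusted p of 0.155 and 0.141, edgeR). The nearest, VAMP4 and FMO4, start or end 106.7 and 143.4 kb away. METTL13, DNM3, GORAB and KIFAP3 lie 188.2, 224.4, 931.7 and 1400.3 kb away. No neighbour of PRRC2C was as low as PRRC2C, which its choice made likely. Only 29 of 17000 genes, PRRC2C included, were at or under its fold change.

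Beside PRRC2A, NFKBIL1 was higher (0.38) and the read-through gene ATP6V1G2-DDX39B lower (-0.47), whose count is uncertain because it shares exons with other genes, and 4 did not pass. Beside PRRC2B, RAPGEF1 (-0.66), an exchange factor for Rap1, and NUP214 (-0.38), a nuclear pore protein, were lower and 4 did not pass. Over all 18 neighbours 3 were higher, 5 lower and 10 did not pass, with log2 fold changes from -0.75 to 0.46. The share called was 44.4%, close to the 46.6% of all genes tested. ATP6V1G2-DDX39B lost its call in 8 of 15 alternative settings, for example at an adjusted p of 0.296 without the Set block.

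The 5 genes whose values over the 6 libraries lay nearest to those of PRRC2C were sought by the Euclidean distance between log2 CPM values centred on each gene's siControl mean, leaving out genes whose average log2 CPM was under 1. PALM3, a paralemmin, was the nearest at a distance of 0.183, with 24.6, 24.2 and 24.8 TPM in siControl and 7.51, 6.65 and 6.67 TPM in siNONO. WASHC5, a subunit of the actin-regulating WASH complex, followed at 0.343, with 40.8, 39.6 and 40.1 against 16.2, 14.4 and 13.8 TPM. The others were CDKN3, a phosphatase of cyclin-dependent kinases (0.440), CNOT9, a subunit of the CCR4-NOT deadenylase (0.457), and the long noncoding RNA MIR3667HG (0.539). Their log2 fold changes ran from -1.81 for MIR3667HG to -1.54 for CNOT9. They were picked for being low in these same libraries, so their levels are a description. The longest match to the siRNA target in any of their transcripts was 11 bases in CDKN3, 9 in WASHC5 and MIR3667HG, 8 in PALM3 and 7 in CNOT9.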

How the data were processed

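RNA was poly(A)-selected and libraries were stranded. The methods name sickle for trimming, STAR for alignment (GENCODE version 34, GRCh37) and RSEM for counting (version 1.3.1 in the submitters' processing notes). The authors deposited RSEM's estimated counts per gene without normalization, beside TPM, which RSEM scales by length and library size. FPKM columns were deposited by the authors and not used here.

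Counts were rounded and tested with edgeR (version 4.0.16, quasi-likelihood form of edgeR 3), TMM, filterByExpr and a term for Set, and p-values were adjusted by Benjamini-Hochberg over 17000 genes. The biological coefficient of variation was 3.51%. The step was tested on simulated data, and no 2 libraries of a group agreed within sampling noise. DESeq2 (version 1.42.0) and limma (version 3.58.1) on log2(TPM + 1) served as alternatives. Symbols came from a table that paired 62211 of 62492 identifiers, with PRRC2B added by hand from background knowledge, and GENCODE version 44 (GRCh37) gave positions, transcripts and the place of the siRNA target. The average length is RSEM's own. PRRC2 members, lists and alternatives were chosen with earlier results of these data known. Named genes were a fixed set of partners, the 3 highest and 3 lowest called genes of each list, the nearest 3 tested genes on each side and the 5 genes most like PRRC2C. Of the neighbours, those of PRRC2A and PRRC2B that did not pass are given as counts.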

Additional observations from a re-analysis of the deposited data

How the results depend on the processing

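Values with limma are on log2(TPM + 1), where the median of all genes was -0.071 in place of -0.0048. PRRC2C stayed lowest of the 3 genes in all 15 alternatives, from -1.81 to -1.66. Its log2 fold change was -1.66 and its difference from the paralogs -1.45 with effective length offsets, and the difference was -1.42 with limma. PRRC2A, whose Sets differed by an SD of only 0.00431, was -0.22 with library size alone, -0.19 with no filter on low counts, -0.20 with length offsets and -0.28 with limma, and PRRC2B was -0.32 with limma. The family sum was 69.4% of siControl from counts per effective length. Called genes numbered 5227 with DESeq2 (2612 higher, 2615 lower) and 5257 with limma (1643 higher). With limma the initiation list had 8 higher and 11 lower, the stress granule list 2 higher and 17 lower, and the m6A list 2 higher and 9 lower. With length offsets the stress granule list had 3 higher, and with DESeq2 the m6A list had 6 lower.

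Leaving out 1 library at a time gave -0.21 to -0.19 for PRRC2A, 63.9 to 67.1% for the family sum, 3 to 6 lower in the initiation list, 2 to 6 higher in the stress granule list and 6 to 8 lower in the m6A list. The low counts came without siControl Set 2 (3 initiation and 6 m6A genes lower), without siNONO Set 2 (6 m6A genes lower), and without Set 1 of siControl or of siNONO (2 stress granule genes higher each).

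The study's methods used a batch term that they do not define, and Set, whose meaning the labels do not give, was taken as the block here. Deviations of same-numbered libraries correlated at 0.254, 0.0429 and 0.305 over 13327 genes, and siNONO Set 2 correlated better with siControl Set 1 (0.124), so the data do not show that every number pairs its libraries. With no replicate block 6164 genes were called, of which 6147 were shared, the initiation list had 2 lower and the m6A list 6 lower, and EIF1AX (adjusted p = 0.063, edgeR), EIF4G1, G3BP1 and ATP6V1G2-DDX39B lost their calls.

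Of 645 values of 43 single genes, 609 kept direction and call, 21 lost the call, 2 gained it (both DENR) and 13 changed sign. The last belong to genes near 0 that passed in no setting: METTL3 (-0.00041 with library size alone, -0.02 with length offsets, -0.10 with limma, -0.01 to 0.06 without 1 library), EIF4G3 (-0.08 with limma, -0.00068 to 0.05 without 1 library), FMO4 (-0.11 to 0.20 without 1 library) and VAMP4 (-0.05 to 0.14 without 1 library). The causes were not tested.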
